A study of Macaca mulatta with 2 samples.

Results

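The iron-handling genes described here are the 10 genes TF, TFRC, STEAP3, SLC11A2, FTH1, FTL, SLC40A1, CP, IREB2 and ACO1, chosen by name as transport, storage and sensing genes of iron and of the copper linked to it. They were read by 24 of the 50238 probes for genes and transcripts on the array, and are 10 of the 21509 gene symbols there. RNA came from 2 primary cultures of rhesus macaque (Macaca mulatta) Sertoli cells, the somatic cells that line the seminiferous tubule and feed the germ cells. The infant culture was made from testes of males less than 3 months old, and the labels record no hormone given to them. The pubertal culture came from males of 18 to 22 months, juveniles in which puberty had been brought on with gonadotropin-releasing hormone (GnRH). It was pulsed through an indwelling catheter for 4 to 5 weeks, each pulse lasting 2 min at 0.15 µg/min and repeated every 3 h. Each culture was then exposed for 12 h to testosterone (100 nM) together with follicle-stimulating hormone (FSH, 5 ng/ml), so no untreated cells were compared. Each group had 1 array and no replicate. The differences below carry no test between groups, and age, animal, culture and GnRH treatment cannot be told apart. The labels do not say how many males contributed to each culture.

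Iron travels in the blood bound to transferrin (TF), which cells take up through the transferrin receptor (TFRC). In the endosome the iron is reduced by STEAP3 and passed to the cytosol by the divalent metal transporter SLC11A2, after which it is used, stored in ferritin (heavy chain FTH1, light chain FTL) or exported by ferroportin (SLC40A1) with the help of a copper ferroxidase such as ceruloplasmin (CP). The iron regulatory proteins ACO1 and IREB2 sense cytosolic iron and bind stem-loops in the messenger RNAs of ferritin, ferroportin, TFRC and SLC11A2. Behind the tubule barrier germ cells depend on Sertoli cells for iron, and transferrin is one of the best known secretory products of the Sertoli cell.

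TF was far higher in the pubertal culture, by 3.32 on the log2 scale (9.96-fold), while both ferritin chains and the endosomal reductase STEAP3 were lower there. CP was detected, that is well above background, in the pubertal culture alone. TFRC, FTH1, IREB2, SLC40A1, SLC11A2 and ACO1 differed by less than 2-fold. Of the 9 genes measured on both arrays, 1 was higher in the pubertal culture by 2-fold or more, where 7.32% of the 14243 genes measured on both were, and 2 were at least 2-fold lower, against 6.32% of all. At 1.5-fold, 6 of the 9 differed in either direction, 1 of them higher (15% of all genes) and 5 lower (16.8%), where 31.8% of all genes differed either way. At 4-fold TF alone did, against 2.53% of all genes either way, 1.67% higher and 0.857% lower. The median difference of the 9 was -0.65, against -0.06 over all genes, with 6 of them negative. Differences are pubertal minus infant, in log2 of the spot intensity after each array was set to its 75th percentile, and 2-fold is 1 on that scale. A gene is the mean of its probes that were well above background on both arrays.

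Over the whole array, well above background were 54.9% of gene spots for the pubertal and 54.8% for the infant culture, and none was saturated. The 308 negative control spots had 95th percentiles of 5.74 and 4.87 intensity units, and the highest of them read 86.1 and 30.5. The error given with each difference is the 1 SD estimate of the scanner software. It holds a fixed term of 10% per spot, so bright probes all come to about 0.20, and it covers the spot and not the animal or the culture. Among the 4767 genes with several probes, the median SD between their probes was 0.21. Scaling matters for the directions. On the spike-in control probes every difference was raised by 1.00 and on the array median it fell by 0.16, so small negative values turn positive with spike-in scaling. Levels of different probes are not comparable, since human probes may bind macaque RNA unequally.

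**Figure D1:**
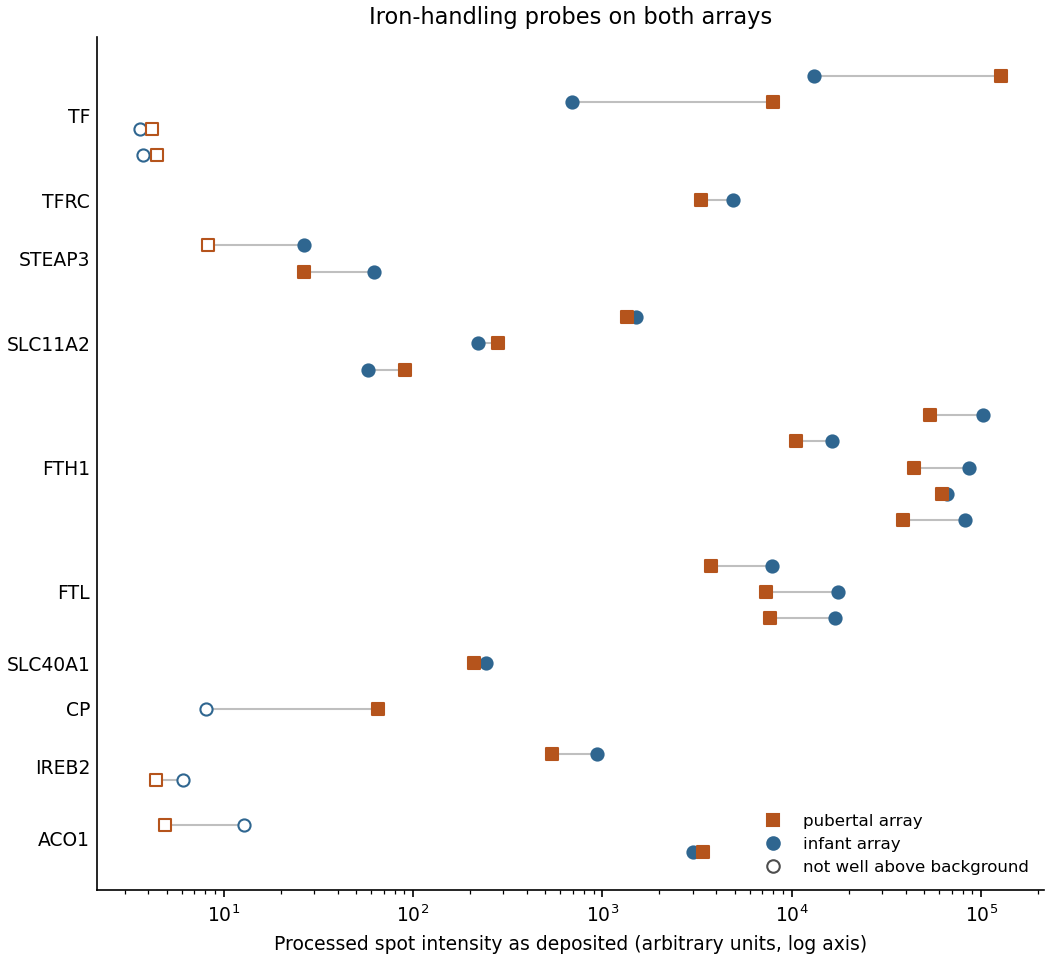
Processed spot intensity (arbitrary units, log axis) of the 24 probes of the 10 iron-handling genes, 1 row per probe, with squares for the pubertal and circles for the infant array. Open symbols are spots not well above background. The 2 bright TF probes and the CP probe lie to the right on the pubertal array, and all 8 ferritin probes lie to the left there.

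Transferrin, the plasma iron carrier, had 4 probes. The brightest (GT_44k_23_P212500) read 126892 intensity units in the pubertal and 13117 in the infant culture, a difference of 3.19 ± 0.20. The other detected probe (GT_44k_23_P212508) read 8002 and 689.6, a difference of 3.45 ± 0.20. Both therefore put the pubertal culture far above the infant one, by 9.09-fold and 10.9-fold, and the SD between them was 0.19. The remaining pair, designed on a different transcript record, read 3.64 to 4.43 on the 2 arrays, inside the range of the negative controls. These probes carry no measurement of TF and enter no mean. The sequence of the second probe is shown because it is 1 of the pair on which the TF result rests, and the array design gives no genome position for it.
TF GT_44k_23_P212508: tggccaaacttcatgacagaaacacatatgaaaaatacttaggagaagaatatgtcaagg

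Among the 14243 genes, TF ranked 61st from the top, with 0.421% of genes above it. Its difference was positive under all 12 alternatives of scaling, filtering and probe choice. It was smallest, 1.73, where the pair of probes at background was averaged in, and 4.31 on the spike-in scale. Among the genes with at least 2 probes, all of one sign, whose difference lay nearest to that of TF were LY6K (3.23), PRSS21 (3.18), GJB1 (3.06) and TUBBP5 (2.97). Their gaps of 0.09 to 0.35 on the log2 scale come from 2 arrays and describe likeness of a single difference. Before the rule on the sign, 4763 other genes had at least 2 probes.

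Levels of cell type markers also differed between the cultures, beside this result. Of 17 Sertoli cell markers 16 were detected on at least 1 array and GATA1 was not. Their summed level, each gene relative to the 75th percentile, was 257 in the pubertal and 243 in the infant culture, with a median difference of 0.28. SOX9 (0.42), WT1 (0.10) and GATA4 (-0.13) differed little. Of the 15 measured on both arrays 3 were at least 2-fold higher (7.32% of all genes), AMH (3.28), DMRT1 (2.11) and SOX8 (1.05). At least 2-fold lower was 1 (6.32% of all genes), INHBB (-1.31), with INHA at -0.52. Of 15 germ cell markers 14 were detected, 7 of them on the pubertal array alone, where 5.71% of all detected genes were. Their summed level was 17.6 against 4.38. The median difference of the 7 measured on both arrays was 3.97, a larger difference than that of the sums, which add levels of different probes. Peritubular myoid and smooth muscle markers, all 10 detected, summed to 188 against 119, and macrophage markers, 10 of 12 detected, to 6.34 against 2.06. Their median differences were 1.36 and 1.32. Endothelial markers, 6 of 10 detected, summed to 2.77 against 1.20, and fibroblast markers, 8 of 8, to 37.3 against 39.9, with median differences of 0.99 and 0.22. The summed level of the Leydig cell list, 8 of 9 detected, ran the other way, at 73.8 against 173. Of these 8 genes 3 were at least 2-fold lower (6.32% of all genes), STAR at -4.24 and CYP17A1 at -4.21 among them. Another 5 were positive, up to 0.56, and the median difference was 0.27. LHCGR, PIWIL1, C1QA, LYZ, CDH5, KDR, TIE1 and ROBO4 were not detected in either culture. The part of these cells in the TF difference was not tested, and in such bulk RNA fewer cells of a type and less RNA per cell cannot be told apart.

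TFRC, which carries iron-loaded transferrin into the cell, differed in the opposite direction to its ligand on this scale. Its single probe read 3309 in the pubertal and 4894 in the infant culture, a difference of -0.65 ± 0.20 (1.57-fold lower). The infant value was the higher, beyond the software error. Setting TF against TFRC within each array cancels the scaling, and that ratio was 3.97 ± 0.25 higher in the pubertal culture. On the spike-in scale TFRC itself was at 0.34. The gap between ligand and receptor thus did not depend on a scaling by a single factor per array, whereas the sign for TFRC did.

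STEAP3, the ferrireductase of the endosome, was dim and lower on the pubertal array. The probe measured on both arrays (GT_44k_24_P200000) read 26.6 in the pubertal and 62.0 in the infant culture, a difference of -1.31 ± 0.35 (2.48-fold lower). Its other probe was well above background on the infant array alone, at 26.5 against 8.29, which makes it lower by at least 1.35-fold in the pubertal culture. Both probes thus had the infant culture higher, near the bottom of the measured range. On the pubertal array both read below the highest negative control spot, 86.1. With normexp background correction the gene was at -0.56, and on the spike-in scale at -0.31, in both cases no longer 2-fold lower. The probe is shown because the STEAP3 value rests on it alone.
STEAP3 GT_44k_24_P200000: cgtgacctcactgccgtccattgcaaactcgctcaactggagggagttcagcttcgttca

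SLC11A2, which moves the reduced iron out of the endosome, gave no common direction. Its brightest probe (GT_44k_23_P139820) read 1345 and 1499.9 (pubertal, infant), a difference of -0.25 ± 0.20. The next read 281 and 219, a difference of 0.27 ± 0.21, and the dimmest 90.2 and 57.8, a difference of 0.55 ± 0.23. The gene mean of 0.19 ± 0.12 therefore averages probes of opposite sign, with an SD between probes of 0.41, against a median of 0.21 over genes with several probes. The dimmest probe was designed on another transcript record than the other pair. The brightest probe alone puts the gene at -0.25. It is shown because it is the one against the mean.
SLC11A2 GT_44k_23_P139820: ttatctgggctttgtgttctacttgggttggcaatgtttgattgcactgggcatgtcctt

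**Figure D2:**
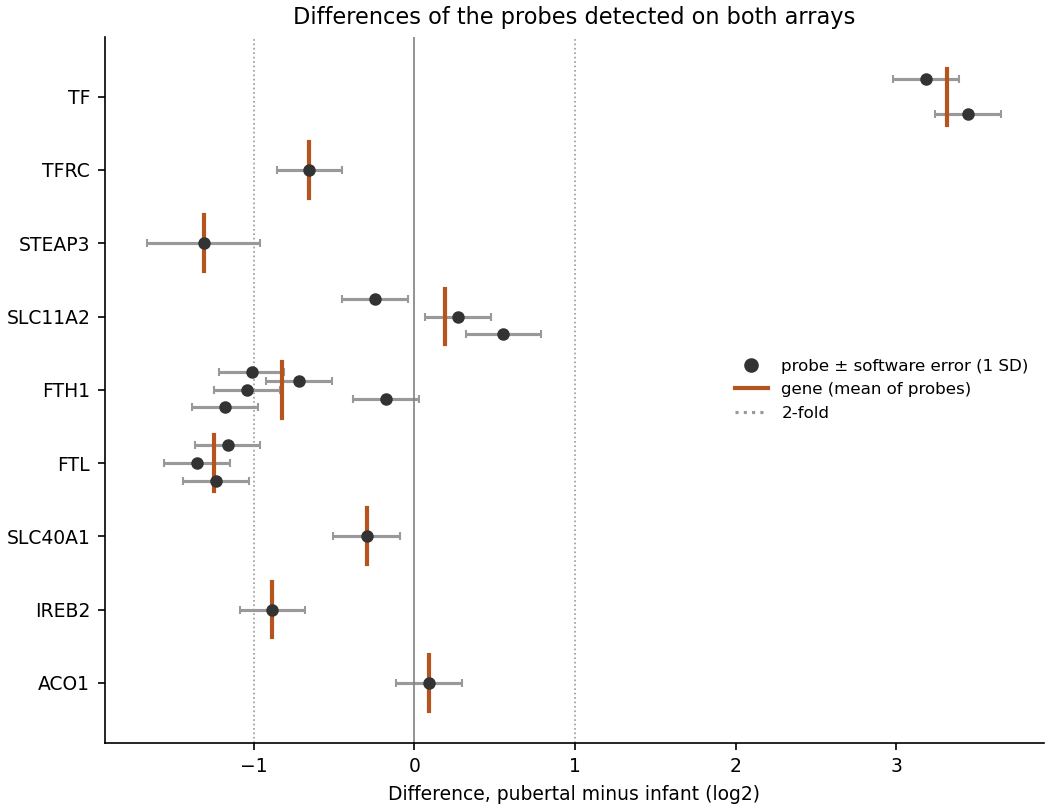
Difference between the arrays (log2, pubertal minus infant) for each probe well above background on both, with 1 SD of the scanner software as the bar and the gene mean as the upright line. Both TF probes lie beyond 3, the 3 FTL probes between -1.35 and -1.16, and the SLC11A2 probes on both sides of 0.

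Ferritin stores iron in a shell of heavy and light chains, of which the heavy chain oxidises the iron and the light chain helps form the core. All 8 ferritin probes were lower on the pubertal array with this scaling. The light chain FTL was at -1.25 ± 0.12 (2.38-fold lower), and its 3 probes were close together. They read 3729, 7312 and 7673 on the pubertal array against 7848, 17568 and 16978 on the infant array, which gives -1.16, -1.35 and -1.23 in that order. No infant value was reached by the pubertal spot of the same probe, and the SD between the probes was 0.10. With every alternative but spike-in scaling, where it was at -0.25, FTL stayed at least 2-fold lower.

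The heavy chain FTH1 was at -0.83 ± 0.09 (1.77-fold lower), with 5 probes that spread more widely, at an SD of 0.40. Probe GT_44k_32_P820503 read 38776 in the pubertal and 82479 in the infant culture (-1.18), GT_44k_32_P111565 read 44378 and 85844 (-1.04), and GT_44k_24_P58337 read 53809 and 102132 (-1.01). GT_44k_24_P919330 read 10492 and 16224 (-0.72). The fifth, GT_44k_32_P342064, read 62121 and 65951 and differed by -0.18 ± 0.20 alone, within its error. So 4 of the 5 had the infant culture clearly above the pubertal one, 3 of them past 2-fold, and the last lies nearest to 0. With the brightest probe or the median of the probes in place of the mean, FTH1 was at -1.01, and on the spike-in scale at 0.17. Relative to FTH1, FTL differed by a further -0.43 ± 0.15 (pubertal minus infant), about the size of the spread between the FTH1 probes. A scaling by a single factor per array cancels in this value, but the normalization and choice of probes do not. FTL and FTH1 were at -1.10 and -0.49 with quantile normalization, and at -1.23 and -1.01 with the brightest probe.

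The FTH1 values are uncertain in identity, since the heavy chain has many near-identical processed copies. All 5 FTH1 probes were listed in the design with 1 to 3 noncoding RefSeq records besides the coding one, and none of the 3 FTL probes was. Over the 51 bases where they overlap, 2 probes both named FTH1 (GT_44k_32_P111565 and GT_44k_24_P58337) matched at 47, so probes under the one name do not hold the same sequence. Overlapping alignments of a heavy with a light chain probe are given for 3 pairs. FTH1 probe GT_44k_32_P820503 matched FTL probe GT_44k_32_P155247 at 27 of 35 bases (77.1%, longest identical run 13), and GT_44k_32_P111565 matched GT_44k_23_P50498 at 40 of 57 (70.2%, longest run 11). Aligned without gaps, FTH1 probe GT_44k_24_P58337 and FTL probe GT_44k_23_P50498 overlapped by 48 bases and matched at 33 (68.8%), with no identical run longer than 7 bases. This least alike of the 3 pairs is printed as an example of how the chains differ where both were probed, with the unequal bases of the overlap in capitals.
FTH1 GT_44k_24_P58337: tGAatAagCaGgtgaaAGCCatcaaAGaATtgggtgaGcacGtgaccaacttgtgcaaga
FTL GT_44k_23_P50498: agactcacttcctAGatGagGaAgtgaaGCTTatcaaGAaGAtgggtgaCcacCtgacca

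The other ferritin names measured on both arrays were also lower in the pubertal culture with this scaling. FTHL12, a heavy chain pseudogene name, was at -0.95 ± 0.20. FTHL17, an X-linked ferritin-like gene, was at -2.09 ± 0.22 (4.27-fold lower) on 1 probe, whose best ungapped match to any FTH1 probe was 27 of 47 bases. FTHL3P was not detected. Mitochondrial ferritin FTMT was detected in the infant culture alone (lower in the pubertal culture by at least 1.65-fold).

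Iron leaves the cell through ferroportin, SLC40A1, whose single probe read 209.5 in the pubertal and 242 in the infant culture. The difference of -0.30 ± 0.21 was little larger than the software error, and it was 0.70 on the spike-in scale. CP, the copper-carrying plasma ferroxidase that loads exported iron onto transferrin, had 1 probe. It read 65.7 in the pubertal culture and 8.06 in the infant one, where it was not well above background. CP was thus higher in the pubertal culture by at least 3.34-fold, taken against the lowest signal well above background on the infant array. In all, 5.71% of the 15820 genes detected on either array were detected on the pubertal one alone. The infant spot passed the weaker flag of positive and significant signal, and with that flag the difference was 2.94. That infant spot lay above the 95th percentile of the negative controls there, whose highest spot read 30.5. The pubertal CP spot lay above the 95th percentile of the controls on its array (5.74) but below the highest of them, 86.1. The CP probe is shown because it is the only one behind this value.
CP GT_44k_23_P414793: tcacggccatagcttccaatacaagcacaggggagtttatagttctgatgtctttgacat

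The iron regulatory proteins differed from one another. IREB2, which is degraded when iron is plentiful, read 542 in the pubertal and 941 in the infant culture with its detected probe, a difference of -0.88 ± 0.20 (1.85-fold lower). ACO1, which becomes a cytosolic aconitase when it holds an iron-sulphur cluster, read 3409 and 3008, a difference of 0.09 ± 0.20. The infant array was thus higher for IREB2 alone, and ACO1 did not differ beyond its error. Set against ACO1 within the arrays, IREB2 differed by -0.98 ± 0.29 (pubertal minus infant). Each gene had a further probe that was detected in neither culture. Averaging that probe in put ACO1 at -0.69 and IREB2 at -0.72, both then of one sign. On the array median IREB2 was past 2-fold, at -1.04, and on the spike-in scale it was at 0.11. The detected IREB2 probe is shown because it alone carries that value.
IREB2 GT_44k_23_P106497: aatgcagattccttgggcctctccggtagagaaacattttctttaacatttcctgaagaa

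In their order from highest to lowest difference the measured genes were TF, SLC11A2, ACO1, SLC40A1, TFRC, FTH1, IREB2, FTL and STEAP3. TF stood 3.12 above SLC11A2, the next in the order. Neighbours further down lay 0.06 to 0.39 apart. SLC11A2 from ACO1, FTH1 from IREB2, and FTL from STEAP3 were each closer than the software error of either gene in the pair. Around each of the 24 probes, 15 to 30 spots well above background on both arrays lay within 4.2 grid units, and their median differences ran from -0.33 to 0.35. None of the 24 spots lay in an area where neighbouring spots differed together between the arrays.

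**Figure D3:**
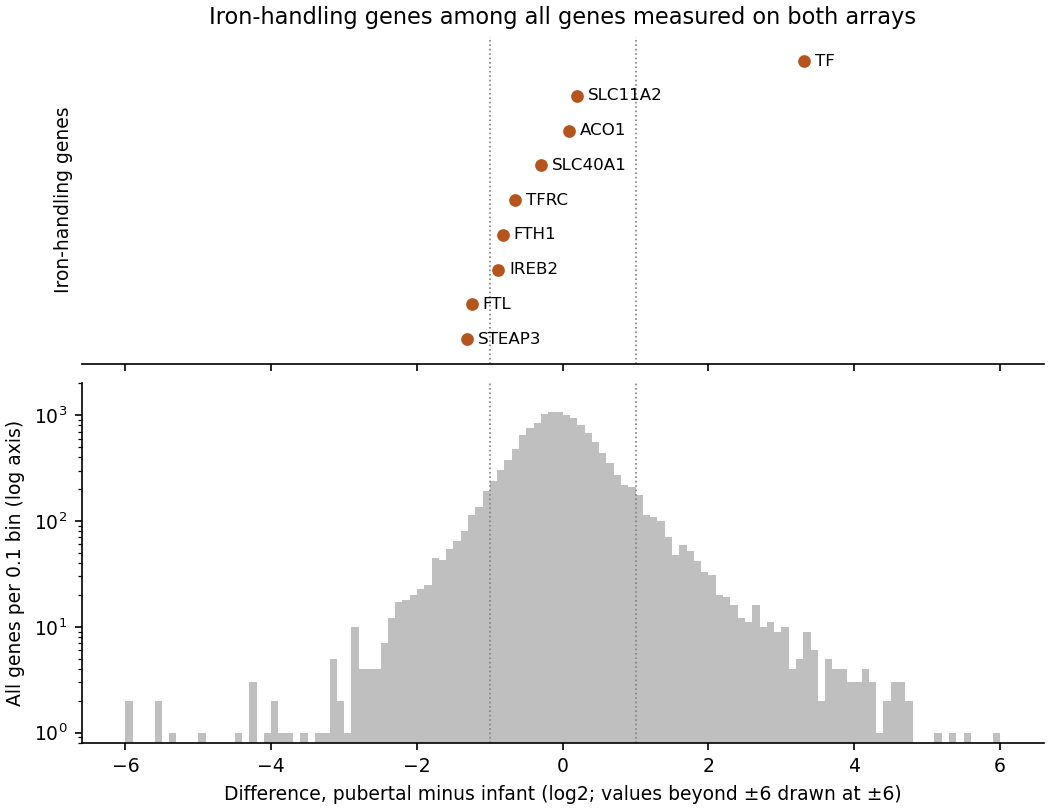
Upper panel, the difference (log2, pubertal minus infant) of the 9 iron-handling genes measured on both arrays, 1 row per gene, with dotted lines at 2-fold. Lower panel, the same difference for all 14243 genes in bins of 0.1, on a log axis. TF lies in the right tail and FTL and STEAP3 lie left of the 2-fold line.

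Beyond the members, 90 other genes of iron, haem and copper handling were measured on both arrays. Of these, 2 were higher in the pubertal culture by 2-fold or more (2.22%, against 7.32% of all genes) and 13 at least 2-fold lower (14.4%, against 6.32%). In 61 of the 90 the difference was negative, and their median was -0.23, against -0.06 over all genes. On the spike-in scale their median was 0.76, against 0.94 over all genes. With spike-in scaling 29 were 2-fold higher, where 45.6% of all genes were, and 3 lower, against 0.864%. The direction of this count thus depends on the scale, and the shares of all genes moved with it. Besides these, 4 genes were detected in the infant culture alone, where 4.25% of all detected genes were, and 1 in the pubertal culture alone (5.71%).

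Of the genes for uptake besides the members 3 of 7 measured were at least 2-fold lower, where 6.32% of all genes were, and none was 2-fold higher. Their median was -0.74, or -0.46 with normexp correction, -0.33 with no filter on dim probes and 0.26 on the spike-in scale. On that scale the medians of all 10 lists were positive, up to 1.35. The median over all genes was 0.94 there, and only that of the reductases (1.35) lay above it. SLC39A14, which brings in iron not bound to transferrin, was at -1.56 ± 0.13, with all 3 of its probes between -1.64 and -1.49. Its relative SLC39A8 was at -1.08 ± 0.21, and the siderophore binder LCN2 at -1.06 ± 0.21. LTF, CUBN and LRP2 were not detected. In the storage list all 4 measured genes were negative, at a median of -0.55. Besides FTHL17, given above, they were NCOA4, the receptor that sends ferritin to the lysosome (-0.60 ± 0.14), and the iron chaperones PCBP1 (-0.50 ± 0.14) and PCBP2 (-0.47 ± 0.15), each with both of its probes on that side.

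The export list had none of 4 past 2-fold, where 13.6% of all genes were, at a median of -0.26. HAMP, the hormone hepcidin that closes ferroportin, was at -0.85 ± 0.28, TMPRSS6, a protease that restrains hepcidin, at 0.60 ± 0.40, and HEPH, a membrane ferroxidase, at -0.55 ± 0.15. HAMP and TMPRSS6 each rested on 1 dim probe. In log2 relative to the 75th percentile, the pubertal level of HAMP was -3.35, where the lowest detected was -4.29. The infant level of TMPRSS6 was -4.22, where the lowest was -4.37. HFE2, BMP6 and HEPHL1 were not detected. Reductases split. STEAP1, a member of the STEAP family, was higher in the pubertal culture by 2.03 ± 0.20 (4.08-fold), and CYBRD1 by 0.69 ± 0.15. The infant level of STEAP1, -3.63, lay near the lowest detected on that array, -4.37. FRRS1 was at -1.45 ± 0.20, and STEAP2 was detected in the infant culture alone (lower in the pubertal culture by at least 2.41-fold). The median of the 4 measured was 0.36, or -0.02 with no filter on dim probes.

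In the sensing list 2 of 4 were at least 2-fold lower, where 6.32% of all genes were. They were the oxygen-regulated factors EPAS1 (-1.32 ± 0.20) and HIF1A (-1.16 ± 0.20). FBXL5, the iron sensor that marks IREB2 for degradation, was at 0.67 ± 0.20.

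Haem synthesis was measured for all 13 of its genes, with 10 negative and a median of -0.34. Of the 13, 2 were at least 2-fold lower (15.4%, against 6.32% of all genes) and none 2-fold higher. ALAD was at -1.13 ± 0.16, FECH, which inserts the iron, at -1.01 ± 0.20, and ALAS1, the first enzyme, at -0.90 ± 0.15. In haem uptake and breakdown 3 of 13 were at least 2-fold lower (23.1%, against 6.32% of all genes) and 1 higher (7.69%, against 7.32%). Their median was -0.21. HMOX1, which frees iron from haem, was at -2.40 ± 0.20 (5.28-fold lower), the haemoglobin binder HP at -1.72 ± 0.21 and the haem chaperone PGRMC1 at -1.52 ± 0.21. The haptoglobin receptor CD163 was higher, by 3.09 ± 0.21. It is also one of the macrophage markers, so the summed level given above includes CD163 itself. Of the 7 such markers measured on both arrays 6 were positive, CD163 and FCER1G (0.00) among them, and CD68 was at -0.94. The part of macrophages in the CD163 difference was not tested. HPX was detected in the infant culture alone (lower in the pubertal culture by at least 1.24-fold) and FLVCR2 in the pubertal culture alone (at least 1.28-fold higher). Both lay near the lowest level detected on the array concerned, HPX at -3.98 against -4.37 and FLVCR2 at -4.01 against -4.29.

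Iron-sulphur cluster assembly differed little. None of the 18 measured mitochondrial genes and none of the 9 cytosolic ones passed 2-fold, where 13.6% of all genes did in either direction. Their medians were -0.13 and -0.20. The furthest were the ferredoxin FDX1 (-0.73 ± 0.20), C1orf69 (-0.69 ± 0.25) and the glutaredoxin GLRX5 (-0.63 ± 0.20) in mitochondria, and NDOR1 (-0.90 ± 0.15), FAM96A (-0.53 ± 0.20) and FAM96B (0.50 ± 0.20) in the cytosol. ISCA2 was detected in the infant culture alone (lower in the pubertal culture by at least 1.96-fold). Of 14 measured copper genes 1 was at least 2-fold lower (7.14%, near the 6.32% of all genes) and none 2-fold higher. It was SLC31A2, a relative of the copper importer, at -2.23 ± 0.20 (4.70-fold). The extracellular superoxide dismutase SOD3 was at 0.98 ± 0.20 and the copper pump ATP7B, which loads copper onto ceruloplasmin, at -0.91 ± 0.20. The importer SLC31A1 was at -0.62 ± 0.10, with all 4 probes measured.

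**Figure D4:**
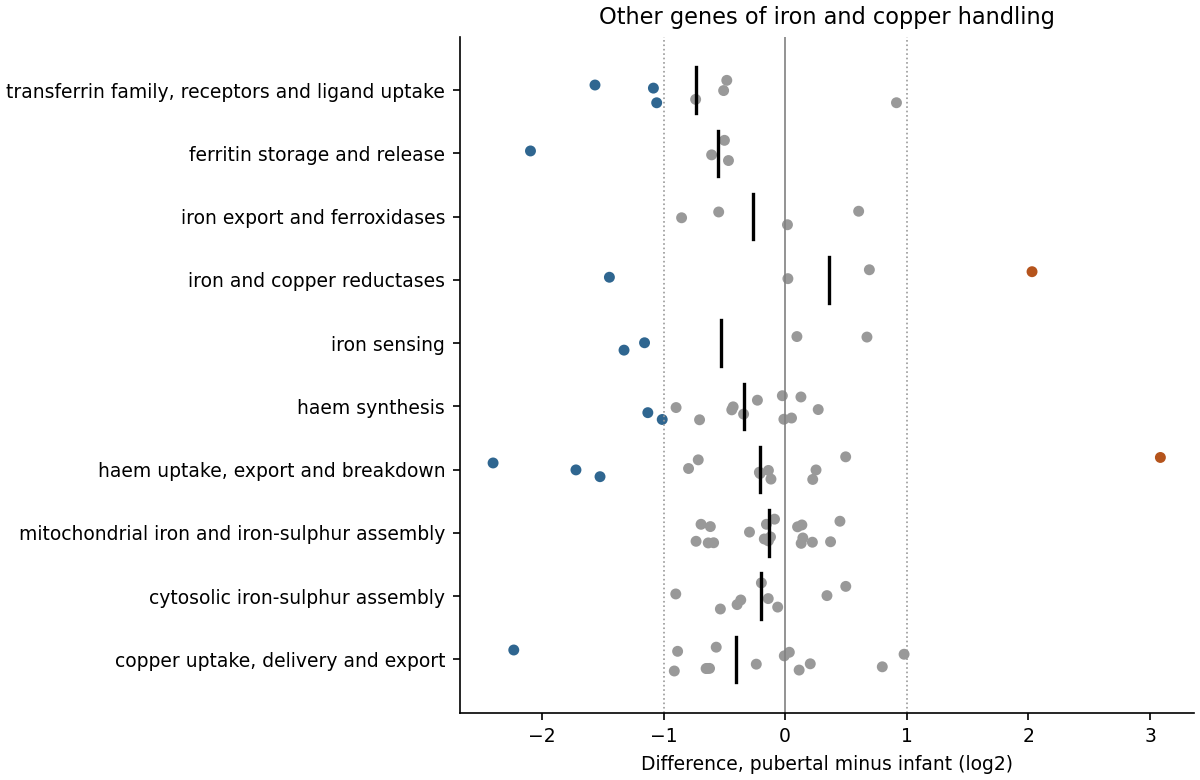
Difference (log2, pubertal minus infant) of the other genes of iron and copper handling measured on both arrays, 1 dot per gene and 1 row per list, with the list median as the upright line and dotted lines at 2-fold. Dots past 2-fold are coloured, STEAP1 and CD163 to the right and 13 genes to the left.

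**Figure D5:**
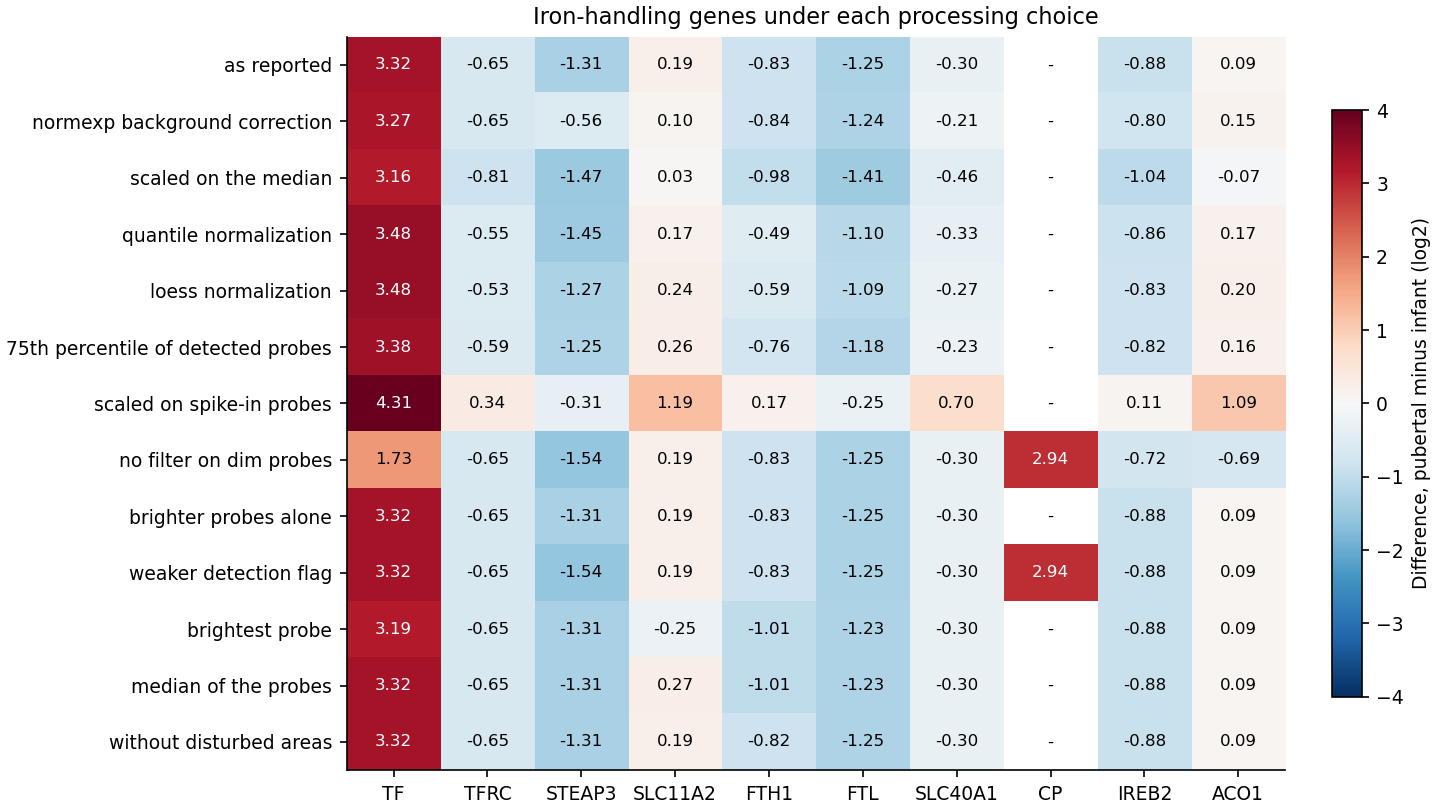
Difference (log2, pubertal minus infant) of the 10 iron-handling genes with the processing as reported and under 12 alternatives, as colour and number, with a dash where a gene was not measured on both arrays. TF is positive in each row, and TFRC, FTH1, SLC40A1 and IREB2 are positive with spike-in scaling alone.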

How the data were processed

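Each culture was read on 1 one-colour Agilent array of human probes (Cy3), both on the same slide and scan, per the file headers. The deposited values are spot intensity values from Agilent Feature Extraction 10.5.1.1 (the submitters' processing notes), background-subtracted and detrended within each array by the authors, with low values replaced by surrogates and no scaling between arrays recorded, per the file headers. The software's deposited p-value for signal against background was not used directly, only the flags set by the software. Human probes on macaque RNA can lower signals unequally between probes. The design names hg18, and probe positions are unmapped there.

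Gene spots (51538 of 52857) without outlier flags (96 and 91 removed) were log2-transformed and the 75th percentile of the array subtracted (406.7 pubertal, 382.4 infant). Spots of a probe were averaged. Detection of a probe needed 50% or more of its spots well above background, and gene values are means over probes detected on both arrays. Names that only repeat a record's accession were not counted as genes. A gene detected on 1 array has a bound against the higher of its own signal and the lowest detected signal of the other array (-4.29 pubertal, -4.37 infant). Such bounds hold no spot error and were taken with this scaling alone. All 10 symbols occur in macaque RefSeq tables. limma 3.58.1 in R 4.3.3 gave normexp, quantile and loess values, and the rest used Python 3.11.15. The gene functions were tested on simulated data. The members, the gene and marker lists and the alternatives were chosen with earlier results of these data known. The named genes are all members, the 3 largest differences of each list, genes of a list detected on 1 array, names starting with FTH or FTL, the genes nearest to TF and the defining markers, except a few genes that are not reported here. PCBP2, PGRMC1, SLC31A1, STAR, CYP17A1 and genes named as not detected can fall outside that rule and were chosen after their values were seen. With 1 array per group there was no test, and precision is limited by the number of arrays.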

Additional observations from a re-analysis of the deposited data

How the results depend on the processing

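With 1 array per group no replicate could be left out, and no paired analysis was possible because each group has 1 array. TF differed by 3.16 with median scaling, 3.48 with quantile and 3.48 with loess normalization, 4.31 with spike-in scaling and 1.73 without a filter for dim probes. The count of members at least 2-fold higher was 3 of 9 with spike-in scaling (TF, SLC11A2 and ACO1), where 45.6% of all genes were. It was 2 of 10 without the filter for dim probes (9.68% of all genes) and with the weaker detection flag (10.05%). CP was added in both. The count at least 2-fold lower was 3 of 9 with median scaling (9.16% of all genes). It was also 3 with the brightest probe (6.61%) and with the median of the probes (6.28%). It was 1 with normexp correction (3.99%) and 0 with spike-in scaling (0.864%). The members' median was 0.34 with spike-in scaling, against 0.94 over all genes. At a threshold of 1.5-fold 5 members were lower (16.8% of all genes), and at 4-fold 0 (0.857%). Of the other iron genes, 1 was higher and 8 lower with normexp correction, where 3.88% and 3.99% of all genes were. With median scaling 2 were higher and 18 lower (5.51% and 9.16% of all genes). With spike-in scaling the counts were 29 and 3 (45.6% and 0.864% of all genes). At 1.5-fold, with the scaling as reported, they were 8 and 31 (15% and 16.8%), and 3 genes were lower at 4-fold (0.857%). Over all genes, median scaling put 37.6% of the 2-fold calls on the higher side, in place of 53.7%, and spike-in scaling 98.1%. TF and CP were never below 0 in the settings that measured them. FTL and STEAP3 were never above 0. TFRC, FTH1, SLC40A1 and IREB2 turned positive with spike-in scaling alone, SLC11A2 negative with the brightest probe, and ACO1 negative with median scaling or without the dim-probe filter. STEAP3 and CP lie near the lowest detected signal, which limits their precision most.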

Other observations

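Genes of red cells, the main users of transferrin iron in the body, were mostly near or below detection in both cultures. Of 13 erythroid genes on the array 5 were measured on both, 2 on the infant array alone (4.25% of all detected genes) and 6 on neither. HBA1 was at -1.12 and HBG2 at -0.35 (log2, pubertal minus infant), HBA2 at 0.49, SLC4A1 at 0.15 and ALAS2, the haem synthesis enzyme of red cells, at -0.23. HBB was lower in the pubertal culture by at least 1.12-fold and HBD by at least 2.57-fold. The list summed to 0.898 in the pubertal and 1.35 in the infant culture, relative to the 75th percentile. HBA1 and HBA2, and HBG1 and HBG2, are near-identical pairs, so values within a pair are uncertain.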
